A study of Mus musculus with 12 samples.

Results

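The dopamine receptors of the mouse are encoded by 5 genes, Drd1a, Drd2, Drd3, Drd4 and Drd5, and their transcripts were followed in the lesioned and unlesioned striatum of hemiparkinsonian mice treated with L-DOPA. The members were chosen by gene symbol, which gave 16 transcripts of 5 genes among 189364 transcripts of 52169 gene symbols. Drd1a, Drd2 and Drd5 each had 3 transcripts in the deposited table, Drd3 had 2 and Drd4 had 5. For each gene the transcript with the highest mean count over the 12 libraries served as its representative.

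Dopamine receptors are G protein-coupled receptors that fall into a D1-like class (Drd1a and Drd5), which raises cyclic AMP, and a D2-like class (Drd2, Drd3 and Drd4), which lowers it. In the striatum, the D1 receptor marks the medium spiny neurons of the direct pathway and the D2 receptor those of the indirect pathway, while the D2 receptor is also carried by cholinergic interneurons and by dopaminergic terminals. L-DOPA is converted to dopamine in the brain and acts on these receptors.

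C57BL/6J mice had received 1 µl of 6-OHDA (3 µg/µl), a toxin that destroys dopaminergic neurons, in the medial forebrain bundle of the right hemisphere after desipramine (25 mg/kg), which protects noradrenergic neurons, and had recovered for 2 weeks. All groups shared this operation and all received L-DOPA (10 mg/kg) with benserazide (7.5 mg/kg), which blocks its conversion outside the brain. The mice were killed 1 h after a single injection (acute) or after the last of 9 daily injections (chronic). The mRNA was sequenced from punches of the lesioned (right) and the unlesioned (left) striatum, 3 punches a side by the labels and 1 by the study's methods for RNA, giving 4 groups of 3 libraries: acute unlesioned, acute lesioned, chronic unlesioned and chronic lesioned. No group was left without L-DOPA, so an effect of the lesion and an effect of L-DOPA on the lesioned side cannot be told apart here. The acute and chronic groups are different mice, and the chronic ones had more days since the operation. Between them the number of injections, that time and any batch cannot be told apart. The study presents each mouse as its own control, whereas the labels count 12 mice, so the p-values measure the spread between these libraries.

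Library totals ran from 87695043 to 173116525 counts, in which a read counted once on every transcript it overlapped. The 9 markers of spiny neurons summed to between 1633 and 2363 CPM (counts scaled to a common library total) in the 12 libraries, so the labelled tissue was present in each. One library stood apart: in chronic unlesioned replicate 2 the 3 markers of choroid plexus summed to 463 CPM, against 0.485 to 2.99 CPM in the other 11. The 6 markers of cortical glutamatergic neurons summed to 1.64 to 41.3 CPM over all libraries and were lower on the lesioned side in all 6 same-numbered pairs. They went from 30.2, 13.7 and 13 CPM to 15.7, 2.27 and 1.80 CPM between the acute sides and from 24.5, 5.23 and 41.3 CPM to 22.5, 1.80 and 1.64 CPM between the chronic sides. The part of these tissues in the results below was not tested. The fits of the representative receptor transcripts that passed the filter on low counts, and the ratio of Drd1a to Drd2, are given with and without chronic unlesioned replicate 2. Levels, shares and the values of other transcripts and genes are given with it only. Th, which encodes tyrosine hydroxylase, stood at 1.80 ± 0.25 CPM in the acute unlesioned and 1.43 ± 0.36 CPM in the acute lesioned striatum (log2 difference -0.33, adjusted p = 0.225), and at 1.84 ± 0.10 CPM in the chronic unlesioned and 9.63 ± 1.32 CPM in the chronic lesioned striatum (SD, n = 3), where it rose by 2.39 (adjusted p = 4.48e-07).

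Levels between genes were compared on the deposited normalized expression (NE), which scales a count by transcript length and library size. Drd2 was the highest receptor transcript in all 12 libraries, Drd1a the next, then Drd5, and Drd3 and Drd4 were the lowest. In the acute unlesioned striatum NE was 1.5 ± 0.097 for Drd2, 0.937 ± 0.041 for Drd1a, 0.0175 ± 0.0029 for Drd5, 0.00795 ± 0.0020 for Drd3 and 0.000973 ± 0.00018 for Drd4 (SD, n = 3). Neighbours in this order did not overlap in any group except Drd3 and Drd4 in the chronic lesioned striatum, where Drd3 lay between 0.00311 and 0.00859 and Drd4 between 0.00318 and 0.00438. Drd1a made up 38.0% ± 1.8 of the NE summed over the 5 receptors in the acute unlesioned striatum, 9.59% ± 1.2 in the acute lesioned, 44.6% ± 1.9 in the chronic unlesioned and 23.0% ± 1.3 in the chronic lesioned striatum (SD, n = 3). Drd2 made up 60.9%, 89.1%, 54.0% and 75.2% in the same order.

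**Figure D1:**
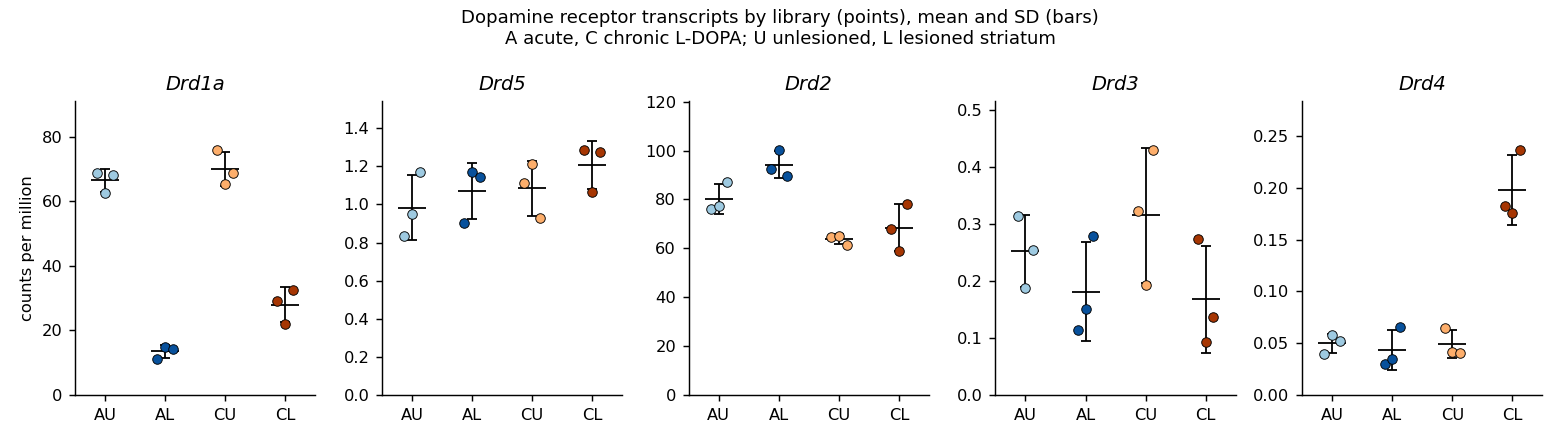
Level of each receptor's representative transcript in CPM on the y axis of its own panel, for acute unlesioned (AU), acute lesioned (AL), chronic unlesioned (CU) and chronic lesioned (CL) libraries. Each point is a library and the bars give the mean and SD; Drd1a fell on both lesioned sides and further on the acute one, and Drd4 stood higher in the chronic lesioned libraries only.

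Drd1a, the D1 receptor, was lower on the lesioned side in both treatments, and less so after chronic L-DOPA. Its representative transcript NM_010076 (3529 nt, 2 exons, minus strand, chr13:54146552-54151027 in mm9) held 69.0, 62.5 and 68.2 CPM in the acute unlesioned libraries and 11.2, 15.0 and 14.3 CPM in the acute lesioned ones. It held 76.0, 65.5 and 68.8 CPM in the chronic unlesioned and 29.3, 22.1 and 32.7 CPM in the chronic lesioned libraries. The lesioned and unlesioned libraries did not overlap in either treatment, and every chronic lesioned library lay above every acute lesioned one. Counts behind these values ran from 1296 to 12107.

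In the fits over all transcripts (edgeR's quasi-likelihood test, Benjamini-Hochberg adjusted over all transcripts tested), Drd1a fell by 2.30 on the log2 scale (SE 0.10, adjusted p = 1.36e-08, a 4.93-fold difference) in the acute lesioned against the acute unlesioned striatum. In the chronic lesioned against the chronic unlesioned striatum it fell by 1.32 (SE 0.13, adjusted p = 1.01e-04, 2.50-fold). The chronic lesioned striatum held 2.08-fold more Drd1a than the acute lesioned striatum (log2 difference 1.06, SE 0.14, adjusted p = 6.46e-04). On the unlesioned side the log2 difference between chronic and acute treatment was 0.07 (SE 0.07, adjusted p = 0.605). The lesion effects differed between the treatments by 0.98 on the log2 scale (SE 0.18, adjusted p = 0.00507). Without chronic unlesioned replicate 2 the chronic lesion effect was -1.37 (adjusted p = 7.99e-05) the difference of lesion effects 0.94 (adjusted p = 0.0117) and the difference between the unlesioned sides 0.12 (adjusted p = 0.329). In bulk tissue, fewer cells of a type and less RNA per cell cannot be told apart.

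The 3 transcripts of Drd1a gave similar lesion effects. The other 2 lie within the span of NM_010076 and overlap each other in part, so the 3 are not independent. AK044723 (3057 nt, chr13:54147024-54151027) fell by 2.30 and 1.33 on the log2 scale on the acute and chronic lesioned sides, and AK021124 (766 nt, a single exon at the 3′ end, chr13:54146563-54147328) fell by 2.30 and 1.32. All 3 passed the test in both lesion comparisons, between the lesioned sides and in the difference of lesion effects, and none did on the unlesioned side. Reads on the 3′ end clone made up 23.4% ± 0.63 of the reads on NM_010076 in the acute unlesioned and 23.6% ± 1.1 in the acute lesioned striatum, against 21.6% ± 0.40 and 21.7% ± 0.58 in the chronic groups (SD, n = 3). This share overlapped between the sides within each treatment and did not overlap between the treatments on either side, and it was not tested.

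Drd5, the other D1-like receptor, did not pass the test in any comparison. Its NM_013503 and the cDNA clone AK045456 cover the same single exon (2802 nt, chr5:38710748-38713549, plus strand) with identical counts, and AK032054 (2822 nt, chr5:38710936-38713757) shares most of it. The level was 0.832, 0.95 and 1.17 CPM in the acute unlesioned, 0.902, 1.17 and 1.15 CPM in the acute lesioned, 1.11, 1.21 and 0.927 CPM in the chronic unlesioned and 1.29, 1.06 and 1.28 CPM in the chronic lesioned libraries. The groups overlapped in every comparison. The log2 lesion effect was 0.12 (SE 0.15, adjusted p = 0.639) after acute and 0.16 (SE 0.15, adjusted p = 0.559) after chronic L-DOPA, and the difference of lesion effects was 0.04 (SE 0.22, adjusted p = 0.95). Without chronic unlesioned replicate 2 the chronic value was 0.25 (adjusted p = 0.406), the difference of lesion effects 0.13 (adjusted p = 0.823) and the difference between the unlesioned sides 0.05 (adjusted p = 0.891), against 0.14 (SE 0.16, adjusted p = 0.654) with it. The clone AK044390 on the opposite strand (chr5:38708572-38712136) overlaps Drd5 in part and held 49 to 88 counts per library over its whole length. Since the counting's use of strand is not stated in the sources used here, reads in the overlap cannot be assigned to a strand.

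Drd2, the D2 receptor, was somewhat higher on the acute lesioned side and lower after chronic than after acute L-DOPA on both sides. Its representative ENSMUST00000075764 (2547 nt, 8 exons, plus strand, chr9:49148732-49216282) held 76.2, 77.3 and 87.1 CPM in the acute unlesioned and 92.6, 100.3 and 89.8 CPM in the acute lesioned libraries. It held 64.8, 65.1 and 61.5 CPM in the chronic unlesioned and 68.0, 58.9 and 78.3 CPM in the chronic lesioned libraries. The acute groups were separated by a small gap, the chronic groups overlapped, and on each side all chronic libraries lay below all acute ones.

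Drd2 rose by 0.24 on the log2 scale on the acute lesioned side (SE 0.07, adjusted p = 0.0426, 1.18-fold). This call was lost with counts summed per gene (adjusted p = 0.0684), with a single transcript per gene (adjusted p = 0.0506), with all 12 libraries in 1 fit (adjusted p = 0.134) and without any of 4 single libraries (acute unlesioned replicates 1 and 2, acute lesioned replicates 1 and 2), with adjusted p up to 0.160. Among the alternatives that kept it were the replicate block (0.24, adjusted p = 0.0182) and DESeq2's Wald test (0.24, adjusted p = 0.0173). The chronic lesion effect was 0.10 (SE 0.10, adjusted p = 0.596), and the difference of lesion effects was -0.13 (SE 0.13, adjusted p = 0.626). Without chronic unlesioned replicate 2 these were 0.12 (adjusted p = 0.608) and -0.11 (adjusted p = 0.734). Between the lesioned sides Drd2 fell by 0.46 after chronic L-DOPA (SE 0.10, adjusted p = 0.00920, 1.38-fold). Between the unlesioned sides it fell by 0.33 (SE 0.07, adjusted p = 0.0401, 1.26-fold), and the adjusted p was 0.0732 with counts summed per gene and 0.0649 with all 12 libraries in 1 fit. It was 0.0114 without chronic unlesioned replicate 2, and leaving out any other single library gave 0.0903 to 0.132.

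The other Drd2 transcripts gave similar fold changes, and they share reads with the representative. ENSMUST00000114494 (2460 nt, 7 exons, same ends) gave log2 differences of 0.23 on the acute and 0.10 on the chronic lesioned side, and NM_010077 (1549 nt, 8 exons, chr9:49148767-49215319) gave 0.26 and 0.09. All 3 transcripts passed the test in the acute lesion comparison, between the lesioned sides and between the unlesioned sides. Reads outside NM_010077 made up 38.1% ± 0.44 of the reads on the representative in the acute unlesioned, 36.8% ± 0.84 in the acute lesioned, 37.8% ± 0.28 in the chronic unlesioned and 38.3% ± 1.0 in the chronic lesioned striatum (SD, n = 3). This share did not overlap between the acute sides, overlapped in the other comparisons, and was not tested. A transcript labelled Ankk1, on the opposite strand and overlapping the end of Drd2, held 289 to 692 counts per library over its whole length (chr9:49213052-49230050), most of which lies outside Drd2.

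The pair of Ensembl transcripts differs by 1 coding exon, which separates the long form of the D2 receptor from the short form. It is exon 6 of 8, 87 bases at chr9:49211299-49211385 (plus strand, mm9), and 87 is a multiple of 3, so that the reading frame is kept. The sequence is shown because the deposited counts tell the forms apart only by reads on these bases. The last 30 bases of exon 5 (chr9:49210170-49210360) and the first 30 of exon 7 (chr9:49212857-49213187) are in lower case, and exon 6 is in capitals.
Long form: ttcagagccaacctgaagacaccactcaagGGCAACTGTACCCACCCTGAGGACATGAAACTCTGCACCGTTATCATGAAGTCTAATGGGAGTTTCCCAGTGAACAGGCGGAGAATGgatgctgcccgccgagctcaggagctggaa
Short form: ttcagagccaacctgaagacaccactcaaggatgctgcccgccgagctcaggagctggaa

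The reads counted on the longer but not on the shorter transcript were taken as reads on exon 6. Reads that reach into exon 5 or 7 may count on both transcripts, so this difference may leave them out. They numbered 346, 241 and 271 in the acute unlesioned, 339, 204 and 247 in the acute lesioned, 141, 170 and 209 in the chronic unlesioned and 142, 146 and 215 in the chronic lesioned libraries. Their share of the reads on the longer transcript was 2.39% ± 0.18, 2.56% ± 0.21, 2.16% ± 0.14 and 2.39% ± 0.11 in these groups (SD, n = 3). In a single library the exact (Clopper-Pearson) 95% interval ran, for instance, from 2.33% to 2.87% around 2.59% in acute unlesioned replicate 1. The shares overlapped between the acute sides and between the treatments on either side, and the 3 chronic lesioned libraries lay just above the 3 chronic unlesioned ones, within the intervals of single libraries. The share was described without a test, and it does not give the proportion of long-form mRNA.

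**Figure D2:**
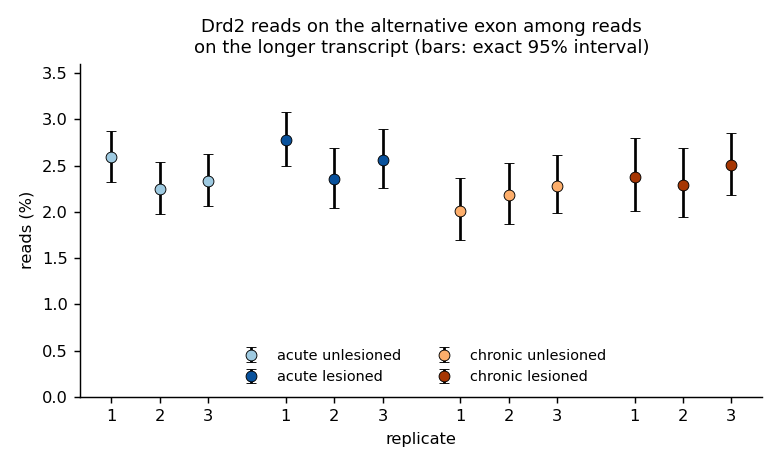
Share of reads on the longer Drd2 transcript that fell on its alternative exon, in percent on the y axis, for each replicate of the 4 groups on the x axis. Bars are exact 95% intervals for counting error; the shares ran from 2.01% to 2.77% and most intervals overlap.

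Drd3, the D3 receptor, best known from the ventral striatum, was low and variable. Its representative ENSMUST00000023390 (1455 nt, 7 exons, plus strand, chr16:43762334-43823045) held 55, 26 and 34 counts in the acute unlesioned, 15, 13 and 30 in the acute lesioned, 35, 23 and 64 in the chronic unlesioned and 24, 10 and 15 in the chronic lesioned libraries. In CPM the groups were at 0.252 ± 0.063, 0.181 ± 0.087, 0.315 ± 0.12 and 0.167 ± 0.094 (SD, n = 3), and they overlapped in every comparison. The log2 lesion effect was -0.50 (SE 0.33, adjusted p = 0.361) after acute and -0.96 (SE 0.41, adjusted p = 0.170) after chronic L-DOPA. A fit that blocked on replicate number gave the same chronic value, -0.96, with an adjusted p of 0.0451, which passes the threshold. Without chronic unlesioned replicate 2 it was -1.22 (adjusted p = 0.0656). Over all single libraries left out, the chronic value ran from -1.46 to -0.64 (adjusted p from 0.0656 to 0.479) and the acute value from -0.97 to -0.21 (adjusted p from 0.0828 to 0.752). Neither the difference between the lesioned sides (-0.14, SE 0.45, adjusted p = 0.851) nor that between the unlesioned sides (0.32, SE 0.30, adjusted p = 0.571) nor the difference of lesion effects (-0.47, SE 0.58, adjusted p = 0.717) passed the test. Without chronic unlesioned replicate 2 the last 2 were 0.57 (adjusted p = 0.171) and -0.72 (adjusted p = 0.554).
NM_007877 (1341 nt, 7 exons, chr16:43762355-43822952) gave log2 lesion effects of -0.38 and -0.95 for acute and chronic L-DOPA (adjusted p = 0.509 and 0.154).

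Drd4, the D4 receptor, stood higher in the chronic lesioned striatum than in the other groups, at very low counts. Its representative AK044436 (2561 nt, 4 exons, plus strand, chr7:148477915-148482136) held 7, 8 and 7 counts in the acute unlesioned, 4, 3 and 7 in the acute lesioned, 7, 5 and 6 in the chronic unlesioned and 16, 19 and 26 in the chronic lesioned libraries. Every chronic lesioned library lay above all others, and the other 3 groups overlapped. Drd4 passed the filter on low counts only in the fits that held the chronic lesioned libraries, where it was high, so that a Drd4 transcript tested there had to differ, and its calls are given as values only. The fitted log2 difference was 2.03 (SE 0.35, adjusted p = 0.00374, 4.08-fold) against the chronic unlesioned and 2.18 (SE 0.39, adjusted p = 0.00302, 4.52-fold) against the acute lesioned striatum. Without chronic unlesioned replicate 2 the former was 1.95 (adjusted p = 0.0127), and DESeq2 gave no adjusted p for the former. The 4 markers of ventral and medial striatum summed to 107.6 to 117.7 CPM in the chronic lesioned libraries and to 56.6 to 96.9 CPM in the other 9, with Wfs1 holding 72.6 of a mean of 111.2 CPM there, and their part in the receptor results was not tested.
The difference of lesion effects was 2.22 (SE 0.55, adjusted p = 0.0334). It lost the call without a filter on low counts (adjusted p = 0.0535) and without any of 9 single libraries, replicate 2 of the chronic unlesioned group among them (adjusted p = 0.0701), and DESeq2 gave no adjusted p for it. Where the filter removed it, the unfiltered fit gave a log2 difference of -0.20 (adjusted p = 0.870) between the acute sides and of -0.05 (adjusted p = 0.968) between the unlesioned sides. ENSMUST00000026569 had the same counts, NM_007878 and AK044379 had 14, 14 and 22 counts in the chronic lesioned libraries and 3 to 7 elsewhere, and ENSPTRT00000062366, a chimpanzee accession of 189 nt, held 0 to 4 counts and was tested in no comparison.

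**Figure D3:**
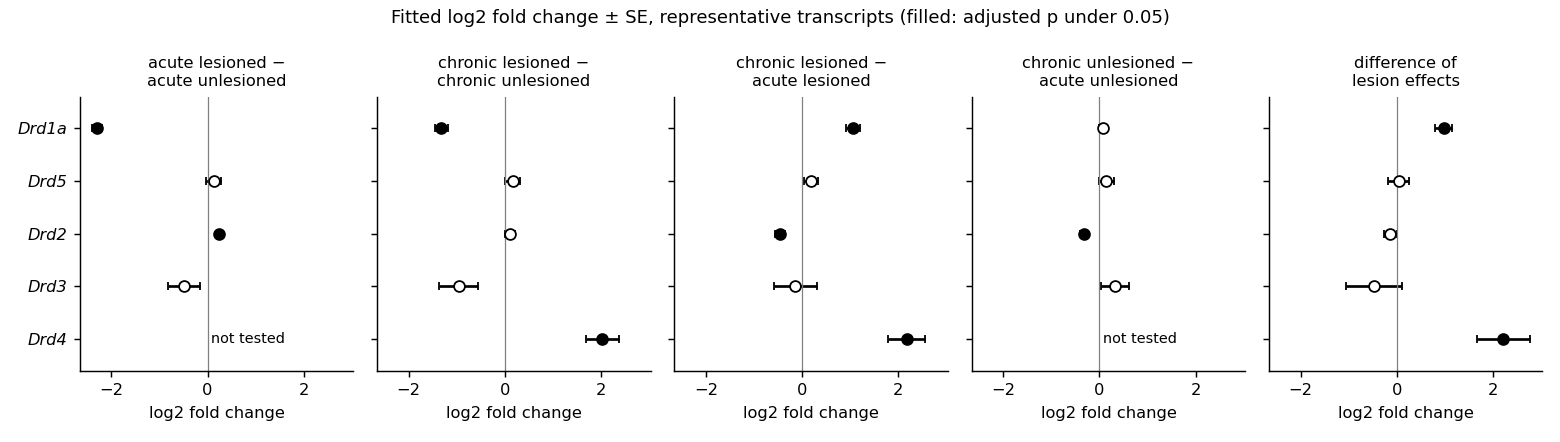
Fitted log2 fold change (x axis, bars are SE) of the 5 representative transcripts in the 4 comparisons of 2 groups and in the difference of lesion effects, with filled points at an adjusted p under 0.05. Drd1a passed on both lesioned sides, at -2.30 and -1.32, Drd2 at 0.24 on the acute side, and Drd4 was not tested in 2 comparisons because of low counts.

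Counted over the members, 6 of the 11 receptor transcripts tested, from Drd1a and Drd2, passed the test in the acute lesion comparison, 3 higher and 3 lower, where 12.9% of all 129674 transcripts tested passed (6.85% higher and 6.02% lower). In the chronic lesion comparison 7 of 15 passed, 3 of Drd1a lower and 4 of Drd4 higher, beside a background of 12% of all transcripts (7.71% higher and 4.33% lower). Between the lesioned sides 10 of 15 passed, 7 of Drd1a and Drd4 higher and 3 of Drd2 lower, beside 23.3% (12.1% higher and 11.2% lower). Between the unlesioned sides 3 of 11 passed, all of Drd2 and lower, beside 2.61% (0.969% higher and 1.64% lower). In the difference of lesion effects 7 of 15 passed, all of Drd1a and Drd4 and higher, beside 4.52% (3.22% higher and 1.3% lower). Transcripts of a gene share reads and are not independent, and the Drd4 transcripts entered only through the group where they were high. With the replicate number as a block the background calls rose from 16684 to 28240 transcripts in the acute and from 15295 to 27506 in the chronic lesion comparison, and from 5911 to 15875 in the difference of lesion effects. Libraries that do not overlap between the groups were common over all transcripts, at 32.6% in the acute and 30.8% in the chronic lesion comparison, 40.3% between the lesioned and 26.2% between the unlesioned sides.

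The balance of the D1 against the D2 receptor was read from the ratio of the representative transcripts. Per length, the ratio of Drd1a to Drd2 in NE was 0.626 ± 0.049 in the acute unlesioned, 0.108 ± 0.015 in the acute lesioned, 0.826 ± 0.063 in the chronic unlesioned and 0.306 ± 0.022 in the chronic lesioned striatum (SD, n = 3), below 1 in every library. The log2 ratio of their counts, which is not corrected for the longer Drd1a transcript and so serves only to compare groups, was -0.27 ± 0.11 in the acute unlesioned, -2.81 ± 0.21 in the acute lesioned, 0.13 ± 0.11 in the chronic unlesioned and -1.30 ± 0.10 in the chronic lesioned striatum (SD, n = 3). The ratio was lower on the lesioned side by 2.54 after acute and by 1.43 after chronic L-DOPA, and higher by 1.52 in the chronic than in the acute lesioned striatum and by 0.40 in the chronic than in the acute unlesioned striatum. Leaving out chronic unlesioned replicate 2, the ratio was lower on the chronic lesioned side by 1.49 and higher by 0.46 between the unlesioned sides. The libraries did not overlap in any of the 4 comparisons. The exact two-sided permutation test gave p = 0.10 in each, adjusted p = 0.10 over the 4, which is the smallest that 3 against 3 libraries allow.

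**Figure D4:**
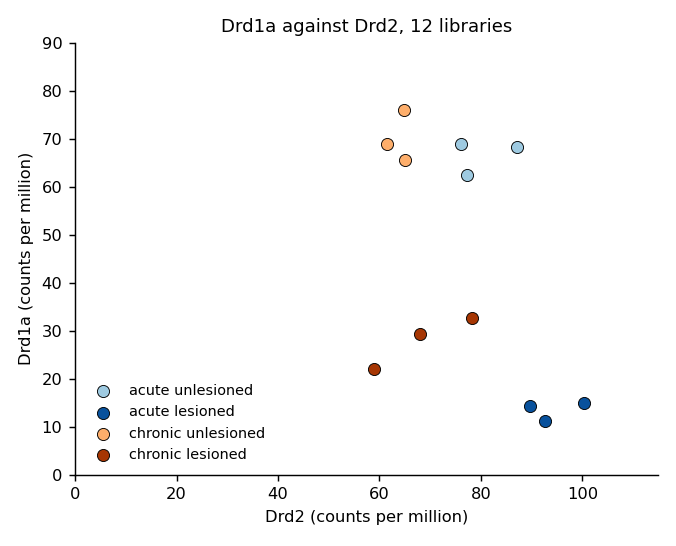
Drd1a (y axis) against Drd2 (x axis) in CPM, with a point for each of the 12 libraries coloured by group. The acute lesioned libraries lie lowest in Drd1a, at 11.2 to 15.0, and highest in Drd2, at 89.8 to 100.3, and the chronic lesioned libraries lie between them and the unlesioned ones in Drd1a.

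Of 9 genes listed for D1 spiny neurons, Drd1a among them, 8 fell and 1 rose on the acute lesioned side, where 15.3% of representative transcripts of all genes passed (8.16% higher and 7.16% lower). Of the 8, Eya1 lost the call with DESeq2, with all 12 libraries in 1 fit and without 4 of 6 single libraries (adjusted p up to 0.126). The median log2 difference of the list was -0.76, beside 0.02 over all genes. After chronic L-DOPA 4 fell and 2 rose, beside 13.7% of all genes (8.45% higher and 5.2% lower), and the median was -0.46. Chrm4, the M4 muscarinic receptor that opposes D1 signalling in these cells, fell by 1.74 on the log2 scale on the acute (SE 0.10, adjusted p = 2.40e-07) and by 0.59 on the chronic lesioned side (SE 0.12, adjusted p = 0.00884). Slc35d3, which takes part in the transport of the D1 receptor to the cell surface, fell by 1.41 (SE 0.13, adjusted p = 2.10e-05) and by 0.46 (SE 0.12, adjusted p = 0.0263). The chronic call was lost without any of 4 single libraries (chronic unlesioned replicates 1 and 3, chronic lesioned replicates 2 and 3; adjusted p up to 0.10). The neuropeptides of these cells differed: Tac1, the substance P precursor, rose on both lesioned sides (0.89, adjusted p = 2.75e-06, and 0.64, adjusted p = 0.0188), the chronic call being lost without chronic unlesioned replicate 3 or chronic lesioned replicate 1 or 3 (adjusted p up to 0.0833). Pdyn, the dynorphin precursor, fell by 0.76 on the acute side (adjusted p = 1.35e-05) and rose by 2.50 on the chronic side (adjusted p = 1.77e-06), from 32.6 ± 7.3 to 184 ± 8.1 CPM (SD, n = 3).

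Of 7 genes listed for D2 spiny neurons, Drd2 among them, 5 rose and 1 (Gpr52) fell on the acute lesioned side, where 8.16% of all genes were called higher and 7.16% lower. On the chronic one 2 rose (Penk and Sp9) and 2 fell (Gpr52 and Grik3), where 8.45% were called higher and 5.2% lower. The median log2 difference of the list was 0.33 on the acute and 0.08 on the chronic side. Under alternative settings Grik3 ran from -0.86 to -0.84 and Gpr52 from -0.56 to -0.54 on the chronic side. The Gpr52 calls were lost under 2 settings on the acute and 1 on the chronic side, and without 3 of 6 single libraries on each. Penk, the enkephalin precursor, rose by 0.94 (SE 0.07, adjusted p = 5.81e-06) and by 1.12 (SE 0.11, adjusted p = 8.91e-05). Adora2a, an adenosine receptor that opposes D2 signalling, rose by 0.33 on the acute side (SE 0.09, adjusted p = 0.0394) and stood at 0.03 (SE 0.12, adjusted p = 0.919) on the chronic side. The acute call was lost with counts summed per gene (adjusted p = 0.0767), with all 12 libraries in 1 fit (adjusted p = 0.106) and without any single library but acute unlesioned replicate 3 (adjusted p up to 0.147). Between the lesioned sides Adora2a fell by 0.60 (adjusted p = 0.00446) and Gpr6, an orphan receptor of the same neurons, fell by 0.64 (adjusted p = 9.08e-04) after chronic L-DOPA. Of 9 genes shared by all spiny neurons, 6 fell on the acute lesioned side (7.16% of all genes), where the median log2 difference was -0.36. The call of Rgs9, 1 of the 6, was lost under 2 settings and without 4 of 6 single libraries. On the chronic lesioned side 0 of the 9 were called in either direction, and the median was -0.11. Those 9 genes summed to 1829.7 ± 67.7 CPM in the acute lesioned and 2148 ± 190.4 CPM in the acute unlesioned striatum (SD, n = 3). The 5 markers of cholinergic interneurons, which also carry the D2 receptor, summed to 22.7 ± 1.8, 25.2 ± 2.8, 23.0 ± 2.8 and 18.8 ± 1.4 CPM in the acute unlesioned, acute lesioned, chronic unlesioned and chronic lesioned striatum (SD, n = 3). Of the 5, 3 fell between the lesioned sides, as Drd2 did, where 13.1% of all genes were called lower, but Chat lost the call with counts summed per gene and without 4 of 6 single libraries (adjusted p up to 0.149) and Lhx8 without acute lesioned replicate 2 (adjusted p = 0.0567). The 4 markers of oligodendrocytes, the 4 of microglia and 3 of 4 of astrocytes also fell there. In the same order of groups the microglial markers summed to 50.5 ± 0.75, 60.2 ± 5.0, 40.5 ± 5.0 and 41.6 ± 4.5 CPM and the astrocyte markers to 144.6 ± 7.4, 171.8 ± 12.1, 124.7 ± 4.4 and 131.7 ± 15.1 CPM (SD, n = 3), in the order of the Drd2 levels. The oligodendrocyte markers summed to 1757 ± 87, 2191 ± 543, 1419 ± 310 and 1224 ± 408 CPM (SD, n = 3). They were lowest in the chronic lesioned striatum, which is not the order of Drd2. On the acute lesioned side C1qa of microglia and Gja1 of astrocytes rose under every alternative. The calls of Tmem119 and Mag there, lost without 2 and 5 of 6 single libraries, and those of C1qa, Tmem119, Gja1 and Aqp4, lower between the unlesioned sides and lost without 3, 4, 5 and 5 of 6, were less stable (adjusted p up to 0.449 for Mag and 0.175 for Aqp4 over all alternatives). The part of these cells in the Drd2 results was not tested.

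**Figure D5:**
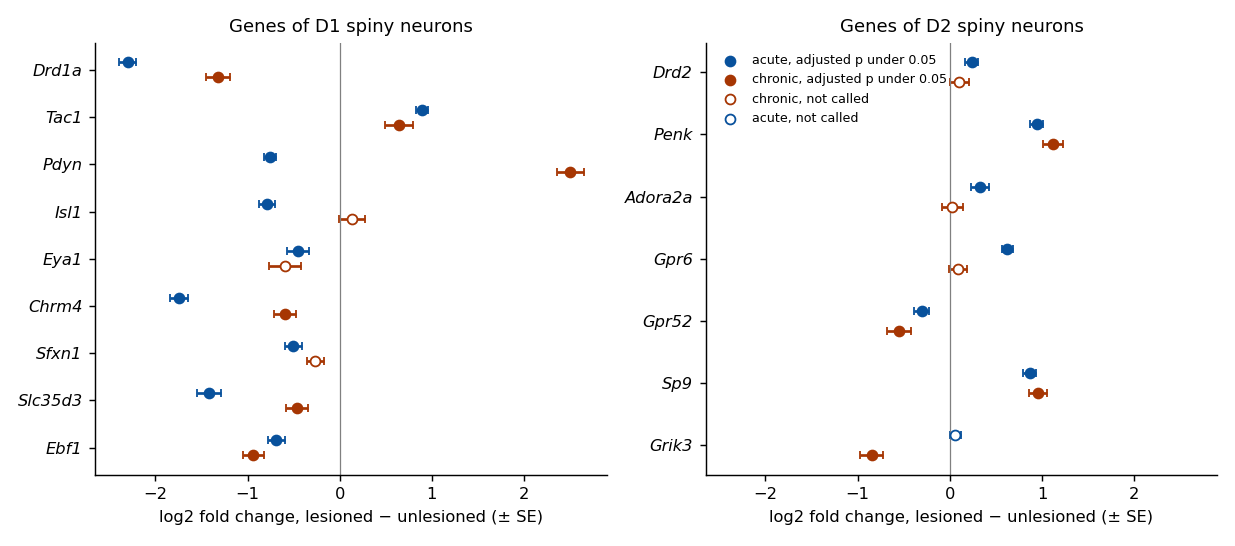
Fitted log2 difference between the lesioned and the unlesioned striatum (x axis, bars are SE) for 9 genes of D1 spiny neurons and 7 genes of D2 spiny neurons, in acute (blue) and chronic (brown) treatment, with filled points at an adjusted p under 0.05. Drd1a and Chrm4 lie below 0 in both treatments with the chronic value nearer to 0, and Pdyn changes sign from -0.76 to 2.50.

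Of 19 G proteins and effectors, 3 rose and 2 fell on the acute lesioned side, 3 rose on the chronic one, and 4 rose and 3 fell between the lesioned sides, beside 15.3%, 13.7% and 25.6% of all genes called. Gnai3, an inhibitory G protein of the kind that D2-like receptors use, rose by 1.21 on the acute (SE 0.07, adjusted p = 4.84e-07) and by 1.45 on the chronic lesioned side (SE 0.09, adjusted p = 4.16e-06), from 7.12 ± 0.63 to 16.5 ± 0.57 CPM and from 7.07 ± 0.50 to 19.3 ± 1.8 CPM (SD, n = 3). Gnal, the stimulatory G protein that couples the D1 receptor in the striatum, had log2 differences of -0.12 (adjusted p = 0.267) and 0.25 (adjusted p = 0.0939). Adcy5, the main striatal adenylyl cyclase, had -0.20 (adjusted p = 0.0953) and -0.03 (adjusted p = 0.887), and Ppp1r1b, which encodes the phosphatase inhibitor DARPP-32, had -0.17 (adjusted p = 0.256) and -0.36 (adjusted p = 0.0697). Prkacb, a catalytic subunit of protein kinase A, rose by 0.38 on the chronic lesioned side (adjusted p = 0.0186), a call lost without chronic unlesioned replicate 1 or 3 or chronic lesioned replicate 1 (adjusted p up to 0.0874).

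Of 16 regulators of the receptors, 2 rose and 3 fell on the acute lesioned side, and 3 rose and 2 fell on the chronic one, beside 15.3% and 13.7% of all genes called in either direction. Rgs4, which speeds the shut-off of inhibitory G proteins, rose by 0.44 and 0.77 (adjusted p = 0.00500 and 0.00127), and Rgs2 rose by 1.26 on the chronic side (SE 0.11, adjusted p = 4.10e-05). Ncs1, a calcium sensor that binds the D2 receptor, had log2 differences of 0.18 and 0.72 (adjusted p = 0.0460 and 3.58e-04), of which the acute call was lost without a filter on low counts, with all 12 libraries in 1 fit and without any single library (adjusted p up to 0.181). Gnb5, the beta subunit that partners Rgs9, fell by 0.36 and 0.50 (adjusted p = 0.00252 and 0.00677), and Rgs9 itself, a striatal regulator of D2 signalling, fell by 0.36 on the acute side (SE 0.11, adjusted p = 0.0456). That call was lost with counts summed per gene, with all 12 libraries in 1 fit (adjusted p = 0.124) and without any of 4 single libraries (acute unlesioned replicates 2 and 3, acute lesioned replicates 1 and 2), where the value ran from -0.39 to -0.23 (adjusted p up to 0.156).

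Of 17 partner receptors, those that share neurons or signalling with the dopamine receptors, 2 rose and 6 fell on the acute lesioned side, and 3 rose and 4 fell on the chronic one, beside 15.3% and 13.7% of all genes called. Between the lesioned sides 7 rose and 2 fell, where 25.6% of all genes passed (12.5% higher and 13.1% lower). Between the unlesioned sides 1 of 17 passed, beside 3.07% of all genes: Htr2c, a serotonin receptor (adjusted p = 0.0267), a call lost with counts summed per gene (adjusted p = 0.0697) and without any single library but chronic unlesioned replicate 2 (adjusted p up to 0.128). Adora1, the adenosine A1 receptor found with the D1 receptor, rose by 0.80 on the chronic lesioned side (SE 0.09, adjusted p = 3.41e-04). Hrh3, the histamine H3 receptor, rose there by 0.86 (SE 0.13, adjusted p = 0.00202) and Htr1b, another serotonin receptor, rose by 1.42 (SE 0.08, adjusted p = 1.09e-06). Chrm1, the M1 muscarinic receptor, fell by 0.54 and 0.44 on the acute and chronic lesioned sides (adjusted p = 2.04e-04 and 0.00671).

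Among 12793 genes with a mean of at least 1 CPM, the 5 whose log2 CPM followed Drd1a most closely over the 12 libraries were Trim32 (Pearson's r = 0.985), Chrm4 (0.979), 1200011M11Rik (0.978), Coil (0.977) and Spata2L (0.976). For Drd2, among 12792 genes, they were Syvn1 (0.961), Rpl39 (0.946), Adora2a (0.931), Exosc5 (0.929) and Egln1 (0.925). These values are a description, since the 12 points share 4 groups and the library scaling. The sizes differed, since Trim32 went from 35.8 to 25.5 CPM between the acute sides, where Drd1a went from 66.6 to 13.5 CPM.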

How the data were processed

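Raw counts per transcript and normalized expression (NE) were taken from the table the authors deposited. Per the labels and the study's methods, reads from TruSeq libraries run on a Genome Analyzer II were mapped to mm9 and counted on a Genomatix Mining Station, and the NE signal was scaled by the authors by transcript length and library size. The authors' own p-values and log2 fold changes, and 36 per-sample columns of the comparison tables, were not used. Transcripts without a symbol (296, 0.0485% of counts) were left out. The deposited counts were tested with edgeR 4.0.16 (R 4.3.3): filterByExpr by group, TMM scaling, quasi-likelihood test and Benjamini-Hochberg adjustment over all transcripts, called at an adjusted p under 0.05. The 2 groups of a comparison entered each fit, and all 12 libraries the difference of lesion effects. CPM used the TMM-scaled totals. The fitting code was also run on simulated counts with known changes, and the outcome of that run is not given here. Intervals cover counting error only. The genes named are the members, the listed genes and the 5 genes most like Drd1a and Drd2.

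The members, gene lists and tests were chosen with earlier results of these data known. Alternatives were DESeq2 1.42.0, no filter on low counts, counts summed per gene, 1 transcript per gene, all 12 libraries in 1 fit, the replicate number as a block and leaving out each library. Libraries with the same number deviated together from their group means within each treatment (correlations 0.423, 0.401 and 0.252 in acute and 0.440, 0.520 and 0.128 in chronic treatment, over 15368 genes). The numbers were therefore taken to pair the sides in the replicate block, whereas the main fits used no pairing. Chronic lesioned replicate 1 and chronic unlesioned replicate 3 also deviated together (0.162), so the pairing of the chronic replicates 3 is uncertain. No pair of replicates agreed within sampling noise.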

Additional observations from a re-analysis of the deposited data

Results flagged for a closer look

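The lesion effect on Drd1a differed between acute and chronic L-DOPA by the test of the difference itself (edgeR's quasi-likelihood test, log2 scale, chronic minus acute), by 0.98 (SE 0.18, adjusted p = 0.00507). The value for Drd4 was 2.22 (SE 0.55, adjusted p = 0.0334) on 3 to 26 counts per library. Drd4 entered this fit only through the group where it was high, and its call was lost without a filter on low counts (adjusted p = 0.0535) and without any of 9 of the 12 single libraries (adjusted p up to 0.106), so it is given as a value only. Among the listed genes the effect was higher after chronic treatment for Pdyn by 3.26, Th by 2.72, Chrm4 by 1.15, Htr1b by 1.14, Rgs2 by 1.05, Adora1 by 1.02, Slc35d3 by 0.95, Isl1 by 0.92, Hrh3 by 0.88, Ncs1 by 0.53 and Prkacb by 0.43. It was lower for Gpr6 (-0.54), Grik3 (-0.90) and the cholinergic markers Slc5a7 (-0.51) and Lhx8 (-0.84). Adjusted p for these 15 genes ran from 1.05e-07 for Pdyn to 0.0492 for Lhx8. Over all 130867 transcripts tested, 4.52% passed (3.22% higher and 1.3% lower). By list, 1 of 19 G proteins and effectors, 2 of 16 regulators and, of 17 partner receptors, 4 higher and 1 lower passed. So did 5 of 9 genes of D1 spiny neurons with Drd1a and 2 of 7 of D2 spiny neurons. Of the cholinergic markers 2 of 5 passed, and of the dopaminergic ones 1 of 3 tested. In the other lists 0 passed. Some genes stand in more than 1 list. The Prkacb call was lost without any of 7 single libraries (adjusted p up to 0.0729) and the Gpr6 call without either of 2 (adjusted p up to 0.0645). The calls of Slc5a7 and Lhx8 were lost under 2 other settings each and without any of 10 and 11 of the 12 single libraries (adjusted p up to 0.116 and 0.118).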

How the results depend on the processing

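Over all transcripts, the number called in the acute lesion comparison was 2643 with counts summed per gene, 3133 with 1 transcript per gene and 28240 with the replicate block, and 9543 to 15329 without single libraries. In the chronic lesion comparison it was 2311, 2661 and 27506, 22945 with all 12 libraries in 1 fit, and 9137 to 14863. Between the lesioned sides it was 4310 and 4910, and 16025 to 36534 without single libraries; between the unlesioned sides 101 and 545, 6278 with DESeq2, 5821 without a filter, and 66 (without acute unlesioned replicate 2) to 14377 (without chronic unlesioned replicate 2, the library with choroid plexus markers). For the difference of lesion effects it was 951, 1053 and 15875, and 3794 to 9536. Summing and choosing 1 transcript test fewer features; the cause of the other shifts was not tested. Drd1a kept its direction and calls under every alternative run. The acute Drd2 value was 0.23 with counts summed per gene, with 1 transcript per gene and with all 12 libraries, where its call was lost, and 0.19 to 0.29 without single libraries. Between the unlesioned sides it was -0.33 with counts summed per gene, with all 12 libraries and with the replicate block (adjusted p = 0.0583), each time without the call, and -0.36 to -0.27 without single libraries; the numbers do not pair libraries across treatments (correlations from -0.125 to 0.121). The chronic Drd3 value passed with the replicate block (-0.96), and the block changed no receptor call beyond these. The Drd4 difference was 2.22 without a filter, where its call was lost, and 1.97 to 2.63 without single libraries. Values that missed the threshold turned sign without single libraries for Drd2 in the chronic lesion comparison (-0.00097 to 0.21), for Drd3 between the lesioned sides (-0.64 to 0.33) and in the difference of lesion effects (-0.97 to 0.0043), and for Drd5 in that difference (-0.10 to 0.16). For 132 called results on listed genes, 1537 of 1790 values under alternatives kept the call, 253 lost it and 0 reversed. Depth limits Drd3 and Drd4: 3 counts correspond to 0.0171 to 0.0347 CPM.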
